A study of Brassica napus with 48 samples.

Results

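BnaC01g44850D is a gene of the rapeseed (Brassica napus) annotation whose Arabidopsis homolog is NGAL2 (AT3G11580), and it is called NGAL2 here. Whether the annotation holds further copies of NGAL2, and whether reads were shared with them, was not examined. It was taken by its identifier, as 1 of the 101040 genes listed, and is described over all 16 groups of the experiment. Seeds of the spring hybrids Lumen and Solar were sampled at 7 and 14 days after flowering (DAF), in plots sown on an optimal or a late date, from control plots or from plots under black shading nets, which cut radiation by 75% between the beginning of flowering and 15 DAF. Each of the 16 combinations had 3 replicates, which gave 48 libraries. All plots stood in 1 field experiment at the same station, and each library pooled seeds from 5 plants of a plot, with 25 siliques per plant. Plots were nested, so that both hybrids lay within a plot of 1 source–sink (S–S) ratio, and both ratios within a plot of 1 date. The study picked NGAL2 out as a transcription factor (TF) correlated with seed weight and seed number in these same libraries and plots, so its shading difference is not independent evidence of a role in either trait.

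NGAL2 belongs to the NGATHA-like branch of the B3 family, whose members bind DNA through the B3 domain. In Arabidopsis the protein is a transcriptional repressor that acts in the maternal tissues of the ovule and seed, where it limits cell proliferation in the integuments and so keeps seeds small. One of the genes that it represses there is KLU, a cytochrome P450 gene that promotes integument growth, and it shares this role with its closest relative NGAL3, while NGAL1 is also known as ABS2.

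The deposited values were transcript levels in TPM, a share of all transcripts corrected for length, normalized between libraries and rounded to whole numbers. They summed to between 908993 and 1219379 per library (median 984648), and a library had 51583 to 56691 genes above 0. TPM keep no read number, so these values do not show how many reads stand behind each of them. As a check of the genotype labels, marker genes were taken from the late sowing at 14 DAF. There were 47 genes at 5 TPM or more in all of its Solar libraries and at 0 in all of its Lumen libraries, and 51 genes with the opposite pattern. Solar transcripts made up at most 1.69% of this marker signal in the remaining 18 Lumen libraries. In the remaining 18 labelled Solar they made up under 90% in 13 libraries, and under 2% in 2 of these. The latter were the libraries labelled Solar, optimal sowing date, 7 DAF, replicate 2, one control and one shaded, which were also the closest of all 1128 pairs of libraries (median absolute log2 difference of 0.0663, against 0.0978 for the next pair). Solar below therefore stands for libraries labelled Solar, and the main differences of NGAL2 that hold this pair are also given without it.

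NGAL2 was detected in every library, at 1 to 20 TPM (median 4, mean 5.04 ± 4.36, SD, n = 48). This mean was above that of 46.2% of the 53810 genes tested, and no other gene had the same values in all libraries. In the 24 control libraries NGAL2 stayed at or below 5 TPM, with a mean of 2.71 ± 1.43 TPM (SD, n = 24), while in the 24 shaded libraries it averaged 7.38 ± 5.04 TPM (SD, n = 24) and exceeded 5 TPM in 13 of them. From 7 to 14 DAF its mean went from 6.67 ± 4.65 to 3.42 ± 3.41 TPM (SD, n = 24 each). The highest levels were thus in shaded plots. The lowest were at 14 DAF, in control plots and in late-sown shaded Lumen, which had the lowest group mean with 1 TPM in each library. RNA from whole seeds cannot tell fewer cells that express a gene from less RNA per cell.

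At 7 DAF in control plots, NGAL2 was at 5, 3 and 3 TPM in Lumen sown at the optimal date and at 3, 4 and 5 TPM in late-sown Lumen (replicates 1 to 3). In Solar it was at 2, 4 and 3 TPM for the optimal date and at 5, 5 and 4 TPM for the late date. The Solar shares of these libraries were 46.4, 1.35 and 42.5% for the optimal date and 68.5, 99.8 and 87.0% for the late date. These 4 control groups overlapped, and together they averaged 3.83 ± 1.03 TPM (SD, n = 12). At 7 DAF in shaded plots, NGAL2 was at 6, 8 and 8 TPM in Lumen of the optimal date and at 7, 18 and 20 TPM in late-sown Lumen. In Solar it was at 8, 5 and 6 TPM for the optimal date and at 5, 8 and 15 TPM for the late date. The Solar shares of these libraries were 18.7, 1.34 and 20.4% for the optimal date and 19.9, 99.5 and 99.1% for the late date. Shaded libraries at 7 DAF therefore reached from the top of the control range to the highest values of the experiment, with a mean of 9.50 ± 5.16 TPM (SD, n = 12).

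At 14 DAF in control plots, NGAL2 was at 2, 1 and 2 TPM in Lumen of the optimal date and at 1, 1 and 2 TPM in late-sown Lumen. In Solar it was at 2, 3 and 1 TPM for the optimal date and at 1, 1 and 2 TPM for the late date. The Solar shares for the optimal date were 74.7, 10.9 and 41.3%, so the lowest share was in the library with the highest level. No control library at 14 DAF exceeded 3 TPM, and the 12 libraries averaged 1.58 ± 0.669 TPM (SD). At 14 DAF in shaded plots, NGAL2 was at 11, 5 and 5 TPM in Lumen of the optimal date but at 1, 1 and 1 TPM in late-sown Lumen. In Solar it was at 4, 5 and 2 TPM for the optimal date (Solar shares of 99.7, 68.1 and 99.6%) and at 5, 10 and 13 TPM for the late date. The shaded groups at 14 DAF thus differed among themselves, with late-sown Lumen at the floor of the values and late-sown Solar well above every control library of that age, and their 12 libraries averaged 5.25 ± 4.07 TPM (SD).

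**Figure D1:**
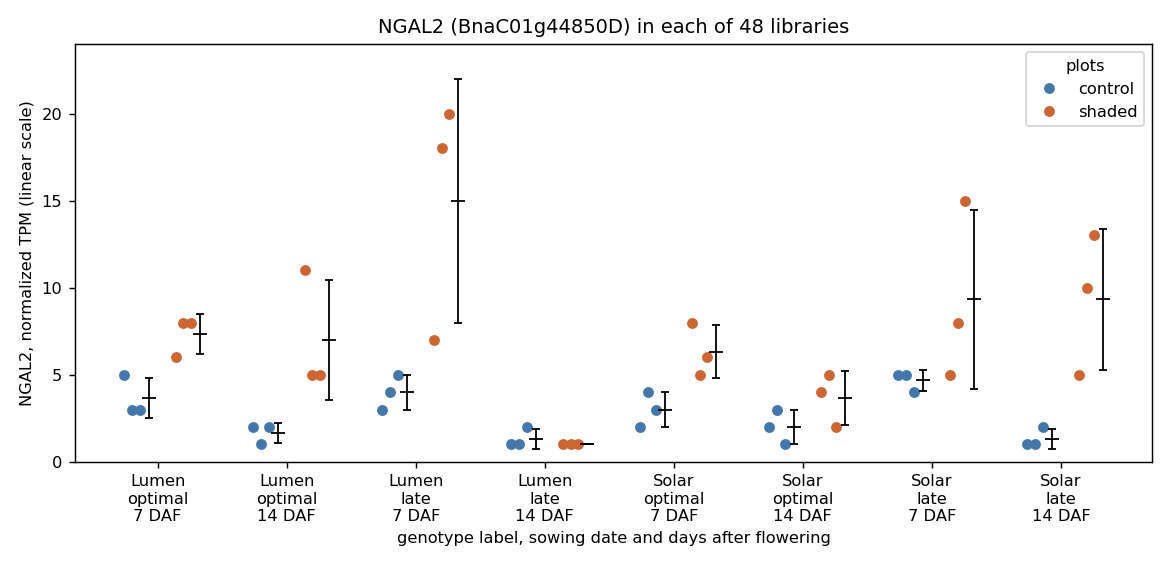
NGAL2 in normalized TPM (linear scale) in each of the 48 libraries, by genotype label, sowing date and DAF on the x axis; blue points are control and orange points shaded libraries, and the black bars give the mean and SD of 3 replicates. All 24 control libraries lie at or below 5 TPM, and the shaded libraries range from 1 TPM, in all 3 of late-sown Lumen at 14 DAF, to 20 TPM in late-sown Lumen at 7 DAF.

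In the order of group means, late-sown shaded Lumen at 7 DAF came first with 15.0 ± 7.0 TPM (SD, n = 3). Late-sown shaded Solar followed, at 14 DAF with 9.33 ± 4.04 TPM and at 7 DAF with 9.33 ± 5.13 TPM (SD, n = 3 each). Shaded plots held the first 6 places, and late-sown shaded Lumen at 14 DAF held the last with 1 TPM in each library. Every pair of neighbours in this order overlapped in the range of its replicates, so no neighbours could be separated beyond their spread.

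To test these differences, log2(TPM + 0.5) was modelled in limma on shading (SS), time (T), genotype (G) and sowing date (SD) with every interaction. The genes tested were those that reached 1 TPM in 47% of libraries or more. An adjusted p under 0.01 after Benjamini-Hochberg (BH) adjustment over these genes was taken as past the threshold. Fold changes on this scale understate the change of a gene at a few TPM. NGAL2 rose under shading by 1.13 on the log2 scale (SE 0.14, 95% confidence interval 0.84 to 1.41), a 2.18-fold difference (limma, BH adjusted p = 3.54e-07, 24 against 24 libraries). It fell by 1.05 from 7 to 14 DAF (SE 0.14, interval -1.34 to -0.77), which left 0.481 times the level (limma, BH adjusted p = 1.03e-07). Of all genes tested, 6.18% were called higher and 3.03% lower under shading, and 17.2% lower and 16.7% higher at 14 DAF. A permutation test of NGAL2 alone, with labels exchanged within the 8 combinations of the other factors, gave p = 1e-05 for shading, the smallest that 100000 resamples can give, and p = 2e-05 for time (two-sided, both 4e-05 after BH adjustment over the 4 factors). Both tests treated single libraries as independent, although both hybrids lay within a plot of 1 S–S ratio. Their p-values for shading can therefore overstate its replication.

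Neither genotype nor sowing date gave NGAL2 a difference past the threshold. Solar minus Lumen was 0.13 (interval -0.15 to 0.41, limma, BH adjusted p = 0.508) and late minus optimal was 0.04 (interval -0.24 to 0.32, adjusted p = 0.845). Their upper bounds correspond to 1.33-fold higher levels in Solar and 1.25-fold higher levels in the late sowing. Without the closest pair of libraries the terms were 0.12 and 0.05. In the late sowing alone the genotype term was 0.54 (adjusted p = 0.0423, limma, BH), beyond that bound. The fit treated libraries as independent, although both ratios and both hybrids lay within a plot of 1 date. The interval for sowing date can therefore be too narrow. When a replicate number was left out, the date term ran from -0.24 to 0.32. The genotype term also holds libraries labelled Solar that had a low Solar share. In the background, genotype called 12.6% of genes higher and 13.6% lower in Solar, and sowing date 10.3% higher and 10.6% lower when sown late.

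Of the total sum of squares of NGAL2, shading took 29.6% and time 26.0%, while 15.2% lay within the groups. The next largest share, 7.51%, belonged to the interaction of all 4 factors, which had an unadjusted p of 0.000245 but an adjusted p of 0.386 (limma, BH) and called 0% of all genes. No interaction of NGAL2 was past the threshold. The nearest were T with SD (-0.92, SE 0.28, adjusted p = 0.0306), G with T and SD (1.63, SE 0.55, adjusted p = 0.038) and G with SD (0.83, SE 0.28, adjusted p = 0.042), for which 3.19, 7.81 and 5.48% of genes were called. G with T gave 0.71 (adjusted p = 0.0846, 4.51% of genes called) and SS with T gave 0.05 (adjusted p = 0.947, 0.771% called).

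Read within each combination, NGAL2 was higher in shaded than in control plots in 7 of 8. Among these, its replicates overlapped in late-sown Solar at 7 DAF and in Solar of the optimal date at 14 DAF. The difference was past the threshold in late-sown Solar at 14 DAF, with 2.37 on the log2 scale (SE 0.39, a 5.17-fold difference, limma, BH adjusted p = 0.000709), where 0.446% of genes were called higher. It was also past it in late-sown Lumen at 7 DAF, with 1.68 (SE 0.39, 3.20-fold, adjusted p = 0.00858, 1.62% called). Lumen of the optimal date at 14 DAF had a difference of similar size that missed the threshold (1.74, SE 0.39, adjusted p = 0.0146, 0.279% called).

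In the remaining combinations the shading difference of NGAL2 was smaller or absent. At 7 DAF for the optimal date it was 0.93 in Lumen (interval 0.14 to 1.73, 0% of genes called) and 0.98 in Solar (0.19 to 1.78, 0.0167% called). In Solar it was 0.80 for the late date at 7 DAF (0.01 to 1.60, 0.23% called) and 0.75 for the optimal date at 14 DAF (-0.05 to 1.54, 0.158% called). The adjusted p of these 4 lay between 0.236 and 0.552 (limma, BH). Late-sown Lumen at 14 DAF was the only combination below 0, at -0.25 (interval -1.04 to 0.55, adjusted p = 1), and there 0% of all genes were called higher in shaded plots.

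The difference between the genotypes in their response to shading was tested for each date and time, a contrast chosen after seeing the data. In the late sowing at 14 DAF the response of Solar exceeded that of Lumen by 2.62 (SE 0.55, unadjusted p = 3.79e-05, adjusted p = 0.0908, limma, BH), which did not pass the threshold, and it called 0.00186% of genes. For the late sowing at 7 DAF the difference was -0.88 (0.00186% called), and for the optimal date it was -0.99 at 14 DAF (0% called) and 0.05 at 7 DAF (0.00372% called), with adjusted p of at least 0.885. The libraries labelled Solar of the optimal date at 7 DAF had Solar shares of only 1.34 to 46.4%. The difference of 0.05 therefore cannot show whether the hybrids responded alike.

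From 7 to 14 DAF, NGAL2 was lower in 7 of 8 combinations. Among these, its replicates overlapped for the optimal date in shaded Lumen, control Solar and shaded Solar. The largest drop was in late-sown shaded Lumen, where it fell by 3.24 (SE 0.39, adjusted p = 4.22e-07, limma, BH), from 7, 18 and 20 TPM to 1 TPM in each library, and where 7.33% of genes were called lower. Late-sown control Solar fell by 1.53 (SE 0.39, adjusted p = 0.00519, 4.55% called), and late-sown control Lumen had -1.32 (SE 0.39, adjusted p = 0.0151, 5% called). Late-sown shaded Solar showed no drop, with 0.04 (interval -0.76 to 0.83, 3.67% called).

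For the optimal date the time differences were all below 0 and none was past the threshold. They were -0.95 in control Lumen (interval -1.75 to -0.15, 2.85% of genes called lower) and -0.14 in shaded Lumen (-0.94 to 0.65, 0.403% called). In Solar they were -0.53 in control plots (-1.33 to 0.27, 4.12% called) and -0.77 in shaded plots (-1.56 to 0.03, 3.11% called), and without the closest pair -0.33 and -0.91. The shading and the time differences of a combination share libraries and are not independent of each other.

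**Figure D2:**
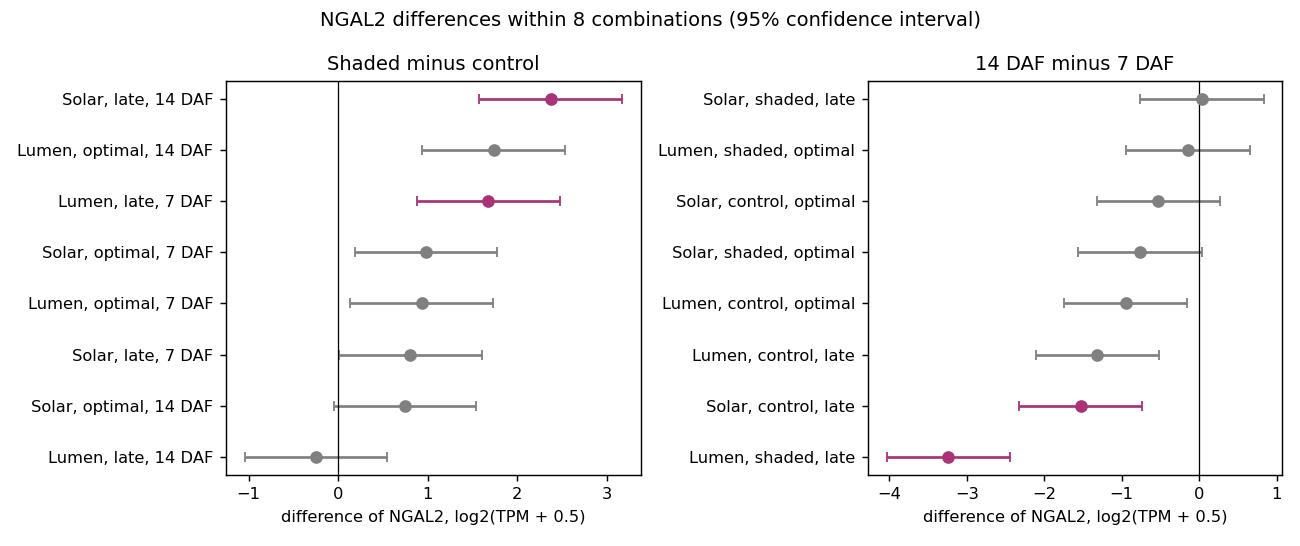
NGAL2 differences on the log2(TPM + 0.5) scale within 8 combinations, shaded minus control on the left and 14 DAF minus 7 DAF on the right, with 95% confidence intervals from limma; purple marks an adjusted p under 0.01. The shading difference runs from -0.25 in late-sown Lumen at 14 DAF to 2.37 in late-sown Solar at 14 DAF, and the time difference from -3.24 in late-sown shaded Lumen to 0.04 in late-sown shaded Solar.

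The shading and time terms of NGAL2 stayed past the threshold when any 1 of the 48 libraries was left out (shading 1.08 to 1.18, time -1.11 to -1.01), and without the closest pair of libraries they were 1.17 and -1.05. The call in late-sown Lumen at 7 DAF was less firm. It held in 1 of the 6 fits that left out 1 of its libraries, the fit without shaded replicate 1, and the adjusted p of the 6 fits ran from 0.000465 to 0.122. In late-sown Solar at 14 DAF it held in 5 of 6 and missed the threshold without shaded replicate 3 (2.10, adjusted p = 0.018). The drop in late-sown control Solar held in 1 of 6, without control replicate 3 of 14 DAF, with an adjusted p of up to 0.0332 in the others, whereas that of late-sown shaded Lumen held in 6 of 6. Without the closest pair, the shading difference of Solar at 7 DAF for the optimal date was 1.33 (adjusted p = 0.0884) in place of 0.98.

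The 79 other TFs of the study at 7 DAF that were tested give the place of each library within its group. The study picked them with NGAL2 by co-expression in these libraries, so a shared order of replicates is part of how they were chosen and is given as a description. Shaded replicate 1 of late-sown Lumen at 7 DAF, with 7 TPM of NGAL2 against 18 and 20 TPM, was the lowest of its 3 replicates for 79 of these 79 TFs, compared with 28.4% of all genes. Shaded replicate 3 of late-sown Solar at 7 DAF, with 15 TPM of NGAL2, was the highest for 73 of them (23.9% of all genes), and shaded replicate 1 of Lumen of the optimal date at 14 DAF, with 11 TPM, was the highest for 61 (20.8%). The library labelled Solar, shaded, optimal date, 7 DAF, replicate 2, which is in the closest pair, was the lowest for 77 (30.7%), while its NGAL2 level of 5 TPM was near the 6 TPM of replicate 3 and below the 8 TPM of replicate 1. In the first 3 of these groups the replicate at the end of the NGAL2 range was at the same end for most of the other TFs. All these libraries were shaded, and control groups could differ. At 14 DAF, control replicate 2 of Lumen of the optimal date was lowest in NGAL2 (1 TPM) but highest for 22 TFs and lowest for 5. Control replicate 3 of late-sown Solar was highest in NGAL2 (2 TPM) but highest for 5 TFs and lowest for 25. For all genes these shares were 23.0 and 23.6%, and 24.4 and 23.9%.

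Among the 12 B3 domain genes annotated in the study's tables, 10 were tested, NGAL2 included. Under shading 4 were higher and 0 lower, against the 6.18 and 3.03% of all genes, with a median difference of 0.10 (0.00 over all genes). At 14 DAF 5 were lower and 1 higher, with a median of -0.38 (0.00 over all genes), against 17.2% lower and 16.7% higher of all genes. The 4 genes higher under shading, NGAL2 included, were all among the TFs that the study picked on these libraries, so the counts describe the list and nothing further.

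Both copies of ABS2 (the Arabidopsis NGAL1, AT2G36080) shared the direction of NGAL2, at lower levels in control plots. BnaA05g08190D was at 0 to 2 TPM in the 24 control libraries and at 0 to 37 TPM in the 24 shaded libraries, with 4, 32 and 37 TPM in late-sown shaded Lumen at 7 DAF and 0 in all 3 replicates of that group at 14 DAF. It rose under shading by 2.595 (SE 0.28, adjusted p = 2.19e-08) and fell by 1.41 at 14 DAF (SE 0.28, adjusted p = 6.89e-05, limma, BH). As in NGAL2, the groups of control and shaded plots did not separate in late-sown Lumen at 14 DAF.

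The second copy, BnaAnng07660D, was at 0 or 1 TPM in control plots and at most 6 TPM in shaded plots. It rose under shading by 1.37 (SE 0.22, adjusted p = 1.74e-05) and fell by 1.22 at 14 DAF (SE 0.22, adjusted p = 1.71e-05, limma, BH). Within combinations, its shading difference and that of BnaA05g08190D were past the threshold only in late-sown Lumen at 7 DAF, with 2.92 and 5.14 (adjusted p = 0.00323 and 9.07e-05). Each ABS2 copy was at 0 in 20 of the 48 libraries, and at such levels the differences depend on the pseudocount of 0.5. Near-identical copies can share reads, and how the counting split them between the copies was not examined.

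The fourth B3 gene higher under shading, BnaC09g35450D (homolog AT5G60142), was expressed at 12 to 92 TPM. It was at 38, 92 and 92 TPM in late-sown shaded Lumen at 7 DAF against 30, 30 and 29 TPM in the control. It rose under shading by 0.46 (SE 0.09, adjusted p = 0.000193) and fell by 0.78 at 14 DAF (SE 0.09, adjusted p = 2.97e-09, limma, BH). Its lowest value in late-sown shaded Lumen at 7 DAF was again in replicate 1.

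The other B3 genes did not pass the threshold for shading. NGA2 (BnaA07g19120D), which in Arabidopsis acts in style and leaf development, had 0.07 under shading but fell by 0.69 at 14 DAF (adjusted p = 1.58e-07, limma, BH). ARF17 (BnaA07g20790D), an auxin response factor, was the B3 gene that rose at 14 DAF, by 0.25 (adjusted p = 0.000125), with -0.12 under shading. VAL3 (BnaA01g11380D), a relative of the repressors of seed maturation genes in Arabidopsis, had -0.09 under shading and -0.06 at 14 DAF. BnaC05g35530D, BnaC06g39960D and BnaA06g14090D lay between -0.11 and 0.12 for shading and between -0.03 and 0.29 for time.

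REM1 (BnaC01g06860D) and BnaC01g06850D did not meet the filter, at 0 in 35 and 32 libraries. Between genotypes 3 of the 10 B3 genes were higher and 1 lower in Solar, against 12.6 and 13.6% of all genes. VAL3, BnaC06g39960D and BnaA06g14090D were higher in Solar (by 0.32, 0.82 and 1.05) and ARF17 lower (-0.22). BnaC05g35530D was higher in the late sowing, by 0.23.

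**Figure D3:**
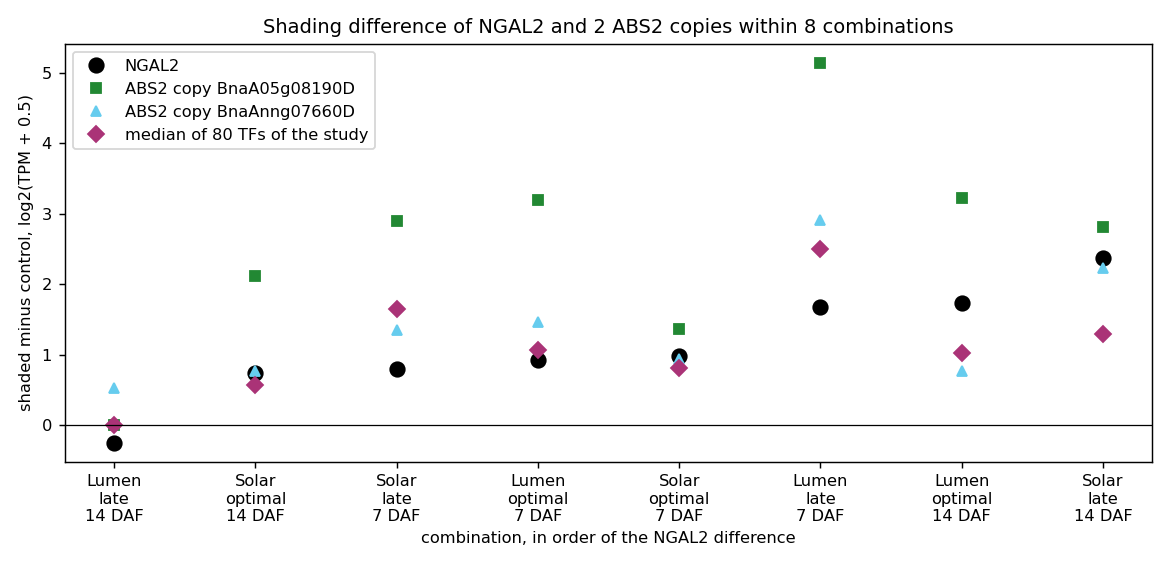
Shaded minus control on the log2(TPM + 0.5) scale within each of 8 combinations, in the order of the NGAL2 difference, for NGAL2 (black circles), ABS2 copies BnaA05g08190D (green squares) and BnaAnng07660D (blue triangles) and the median of 80 TFs of the study (purple diamonds). In late-sown Lumen at 14 DAF NGAL2 lies at -0.25 and the TF median at 0.00, while in late-sown Lumen at 7 DAF BnaA05g08190D reaches 5.14 and the TF median 2.50.

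The TFs that the study picked at 7 DAF number 81, of which 80 were tested, and 73 were higher and 0 lower under shading (6.18 and 3.03% of all genes), with a median difference of 1.13. Of the 19 picked at 14 DAF, NGAL2 among them, 19 were higher under shading (median 2.27, 6.18% of all genes) and 17 lower at 14 DAF (median -1.40, 17.2% of all genes). The study chose both lists on these libraries, so the counts are no independent evidence of a direction. NGAL2 lay at the median of the first list and was the smallest member of the second for shading. Within combinations the median shading difference of the 7 DAF list was 2.50 in late-sown Lumen at 7 DAF, with 60 of 80 called higher (1.62% of all genes). In late-sown Solar at 14 DAF it was 1.30 (14 of 80, 0.446% of all genes). For late-sown Lumen at 14 DAF it was 0.00 (0 of 80), where 0% of all genes were called higher.

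Of the TFs named beside NGAL2, NAC082 (BnaC09g47170D) rose under shading by 0.80, from a mean of 9.04 to 17.5 TPM, but had -0.08 at 14 DAF. The NAC041 copies BnaC04g43920D and BnaA04g19530D rose under shading by 1.45 and 1.36 without a time difference past the threshold (0.43 and 0.16). The CRF6 copies, which encode cytokinin response factors, rose under shading by 1.20 (BnaA07g38140D) and 0.81 (BnaC06g42850D), and the second fell by 0.66 at 14 DAF. The 4 genes annotated as NAC3, of which 2 have the homolog AT3G29035 (the first 2 below) and 2 the homolog AT3G15500, rose under shading by 2.84 (BnaC07g25530D), 2.08 (BnaA06g31080D), 2.13 (BnaA05g24050D) and 1.09 (BnaC05g38150D), and the first 3 fell at 14 DAF, by 1.48, 1.10 and 0.82. So 3 of these 4 were called in the time direction of NGAL2, while NAC082 and NAC041 gave no call for time. Of the 80 tested TFs of the 7 DAF list, 33 were lower and 3 higher at 14 DAF (17.2 and 16.7% of all genes).

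The 12 seed size and filling genes were read beside NGAL2 because in Arabidopsis they act on the same trait or load the seed. Under shading 6 were higher and 1 lower (6.18 and 3.03% of all genes), with a median of 0.33 (0.00 over all genes). Both IDD1 copies among them are also TFs that the study picked on these libraries. The study also named SWEET11, SWEET12, FER and the DA2 copy BnaA01g19380D as regulated by the S–S ratio in these libraries. The counts are therefore no independent evidence of a direction. Both copies of DA2, a ubiquitin ligase that limits seed size, rose, by 0.39 in BnaA01g19380D (adjusted p = 0.00428) and by 0.57 in BnaA02g18890D (adjusted p = 0.000333, limma, BH). Both copies of IDD1, a zinc finger regulator, rose as well, by 0.28 in BnaA09g52630D and by 0.93 in BnaCnng53120D. The sugar exporter genes SWEET11 (BnaC03g52910D) and SWEET12 (BnaC09g04760D) rose by 1.27 and 0.92.

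AP2 (BnaC01g01710D), which limits seed size in Arabidopsis, was the member that fell under shading, by 0.29 (adjusted p = 0.00869), and it rose by 0.51 at 14 DAF (adjusted p = 2.09e-06, limma, BH). BnaCnng53120D fell by 1.16 at 14 DAF and was the only one of the 12 past the threshold for both factors in the directions of NGAL2. SWEET11 and SWEET12 had -0.35 and -0.45 for time, which did not pass it. The FER copies BnaC07g32280D and BnaA09g32070D (receptor kinase) had 0.74 and 0.02 under shading, the DAR1 copies BnaC01g02020D and BnaA01g00990D (relatives of DA1) -0.45 and -0.08, and the brassinosteroid receptor gene BRI1 (BnaC07g47240D) 0.07, none past the threshold. At 14 DAF BnaA01g00990D rose by 0.50. For genotype, BnaA01g00990D was higher in Solar, by 1.27, and BnaC01g02020D had -1.20, and in the late sowing BnaA01g00990D and BnaA09g52630D were higher, by 0.44 and 0.20.

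The genes whose profile was most like NGAL2 over the 48 libraries were ranked by Pearson's r on log2(TPM + 0.5), as a description. The 10 highest were BnaA03g51180D (r = 0.902), BnaC08g09940D (0.888), BnaA03g54360D (0.881), BnaC03g51560D (0.881), BnaA02g22470D (0.877), BnaA08g13760D (0.876), BnaA07g08180D (0.872), BnaC03g63040D (0.872), BnaA09g31410D (0.870) and BnaC04g30280D (0.869). Of these, 2 carried an annotation, BnaA07g08180D as a Dof zinc finger TF that is also in the 7 DAF list, and BnaA09g31410D as a protein of unknown function. All 10 were past the threshold as higher under shading and lower at 14 DAF (6.18 and 17.2% of all genes). They were ranked by likeness to NGAL2 over the same treated libraries, so these shared calls follow from the ranking. Over the 53809 other genes tested the median r was 0.00, 151 genes exceeded 0.8 and 6 were below -0.8.

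These genes differed widely in level, from BnaC08g09940D at 15 to 502 TPM to BnaC03g51560D at 0 to 11 TPM. The libraries share their treatments, so r mostly follows the 16 group means. After these means were removed, r of the same 10 genes with NGAL2 was 0.341 to 0.640, and 0 of them stayed among the 10 highest. Within the 24 Lumen libraries it was 0.876 to 0.946, and 6 of the 10 stayed. Among the B3 genes, r was 0.841 for BnaC09g35450D, 0.821 for BnaA05g08190D and 0.762 for BnaAnng07660D, and among the seed size and filling genes it was highest for BnaCnng53120D (0.767).

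**Figure D4:**
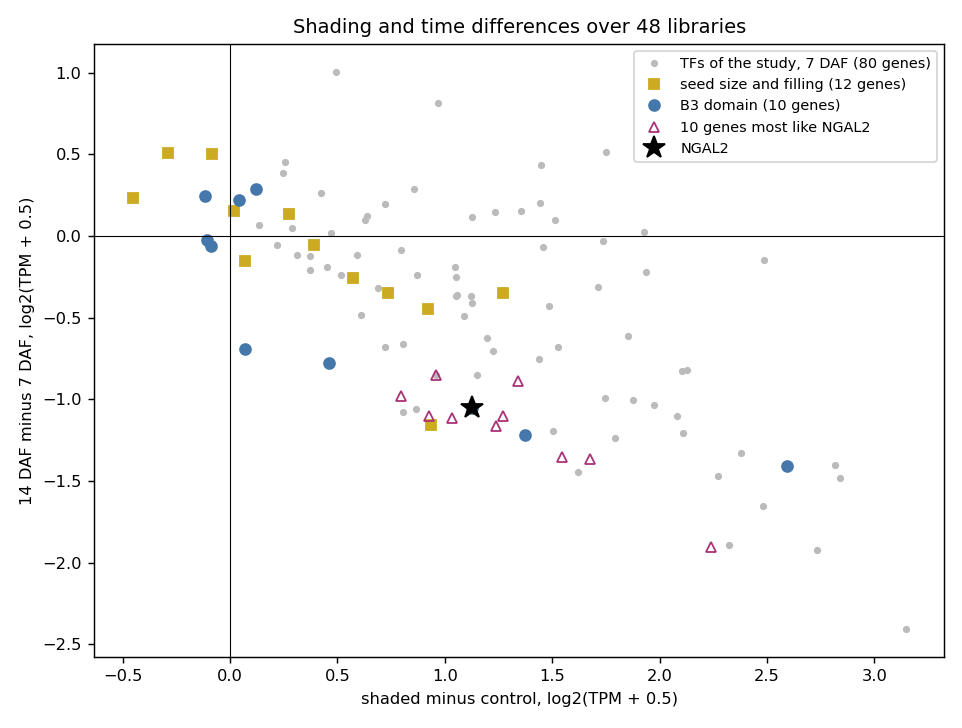
Shading difference (x axis, shaded minus control) against time difference (y axis, 14 DAF minus 7 DAF), both on the log2(TPM + 0.5) scale over 48 libraries, for NGAL2 (star), the tested B3 domain genes (blue circles, NGAL2 included), the seed size and filling genes (yellow squares), 80 TFs of the study (grey points) and the 10 genes most like NGAL2 (open triangles). NGAL2 lies at 1.13 and -1.05 in the lower right quadrant with the 10 most like genes, both ABS2 copies and BnaC09g35450D.

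Several markers of tissues and stages that a seed sample can hold moved with shading, with time or with both, and others with neither. Of 5 photosynthetic genes (copies of LHCA1 and RBCS1B), 3 were higher under shading and 3 lower at 14 DAF (6.18 and 17.2% of all genes), and the LHCA1 copies were in both counts. Their summed level was 158 to 449 TPM in control and 213 to 847 TPM in shaded libraries, and none was at 0 in any library. The 3 copies of TT4, the chalcone synthase gene of seed coat flavonoids, were all lower under shading and higher at 14 DAF (3.03 and 16.7% of all genes). The summed level of TT4 was 9 to 146 TPM at 7 DAF and 50 to 1304 TPM at 14 DAF. It was 32 to 1052 TPM in control and 9 to 1304 TPM in shaded libraries.

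The 3 copies of WRI1, which activates oil synthesis in the embryo, were all higher at 14 DAF (16.7% of all genes), and none was past the threshold for shading (-0.57 to -0.80). Together with OLEO2, an oil body gene that was at 0 in 41 libraries, their summed level was 4 to 12 TPM at 7 DAF and 3 to 430 TPM at 14 DAF, and it was 3 to 430 TPM in control and 3 to 354 TPM in shaded libraries. Of the 2 senescence genes, SAG12 fell by 2.15 under shading and rose by 5.45 at 14 DAF, while PPH had 0.06 and -0.02. The summed level of both was 7 to 1854 TPM in control and 9 to 3159 TPM in shaded libraries. So seed filling markers were low at 7 DAF in every library and high in some at 14 DAF. With NGAL2, r over the 48 libraries had a median of -0.673 for TT4, -0.595 for WRI1 and 0.370 for the photosynthetic genes. It was -0.703 for SAG12 and 0.0789 for PPH, and the part of seed stage and tissue makeup in the NGAL2 differences was not tested.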

How the data were processed

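RNA-seq libraries of rapeseed seeds (48 samples, 16 groups of 3) were grouped by the deposited labels. Reads were pseudo-aligned by the authors in kallisto 0.46 to the Ensembl Plants cDNAs of annotation AST_PRJEB5043_v1, and sleuth normalized the TPM between libraries. The deposited values are whole numbers, treated here as a score because normalized TPM had been rounded, so that each can be off by 0.5 TPM. No read counts were used, and no count test was applied.

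The scale was log2(TPM + 0.5), with no further scaling. limma 3.58.1 in R 4.3.3 (statmod 1.5.0, data.table version 1.17.8) fitted the 16 groups with moderated variances that followed the mean level, and contrasts gave the 15 model terms and the differences within combinations. Other values were computed in Python 3.11.15 (numpy 2.4.6, pandas 2.3.3) and drawn with matplotlib 3.10.9. The fit was tested on simulated data. Replicates are plots, and the fit and the permutation test treat libraries as independent without the strata of the split–split plot. No column of samples outside the series was present (0).

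The genes named are NGAL2, every gene of the B3 domain and the seed size and filling lists, the 10 genes with the highest r, and NAC082, CRF6, NAC041 and NAC3 among the TFs of the study. Of the 101040 identifiers, 3347 matched a RefSeq symbol of the Da-Ae assembly when letter case was ignored. NGAL2 was not among them, none of NGAL3, KLU, DA1 and UBP15 was named there, and no sequence or position is given. The members and lists were chosen with earlier results of these data known. Alternatives were other pseudocounts (1 and 0.1), other filters, 3 other scalings, no trend, replicate blocks, Lumen or late sowing only, main effects only, an adjusted p under 0.05 for counts, other measures of likeness, and leaving out each replicate number or library. The worst case of rounding, fits without the closest pair of libraries or the 6 libraries labelled Solar, optimal date, 7 DAF, the list counts in Lumen, and the contrast of shading between genotypes were chosen after seeing the data.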

Additional observations from a re-analysis of the deposited data

How the results depend on the processing

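The shading term of NGAL2 kept its direction and stayed past the threshold in all 16 alternatives (0.71 to 1.24) and in each fit that left out a replicate number or a library. So did the time term (-1.51 to -0.65 in 16 alternatives). The genotype term passed the threshold in none of its 14 alternatives (0.10 to 0.54, the highest in the late sowing only, adjusted p = 0.0423). The sowing date term, near 0, changed sign to -0.029 with libraries rescaled to a common sum and to -0.37 in Lumen only, and ran from -0.24 to 0.32 with replicates left out. SS with T also changed sign, to -0.0034 with a pseudocount of 1, -0.56 in Lumen only, -0.18 in the late sowing only and -0.034 without the closest pair (-0.15 to 0.36 with replicates left out). SS with SD went to -0.62 in Lumen only and -0.034 without the closest pair (-0.094 to 0.34 with replicates left out). T with SD passed the threshold in Lumen only (-1.73, adjusted p = 0.00317).

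The shading call of late-sown Lumen at 7 DAF was lost with a pseudocount of 0.1 (1.77), no filter, Lumen only, late sowing only or without the 6 libraries labelled Solar, optimal date, 7 DAF (1.68 each), libraries rescaled (1.65) and the worst case of rounding (1.46), with adjusted p of 0.0103 to 0.0294, and it was 1.41 to 2.14 with replicates left out. That of late-sown Solar at 14 DAF held in all 15 alternatives and in 1 of 3 fits without a replicate number (2.10 to 2.74 with replicates left out). The drop of late-sown control Solar was lost with no filter or late sowing only (-1.53 each) and the worst case of rounding (-1.02, adjusted p = 0.0601), and was -1.87 to -1.36 with replicates left out. That of late-sown control Lumen passed when libraries were rescaled (-1.46, adjusted p = 0.00653). Differences near 0 changed sign for time in shaded Lumen of the optimal date (0.057 in the worst case of rounding, -0.63 to 0.10 with replicates left out) and in late-sown shaded Solar (-0.32 to 0.43 with replicates left out). So did the difference between genotypes in the shading response for the optimal date at 7 DAF (-0.012 with libraries rescaled, -0.69 to 0.57 with replicates left out). That for the late date at 14 DAF passed the threshold in none of 13 alternatives (2.28 to 2.995). The causes of these changes were not tested.

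A replicate block did not change a call of a model term or of a difference of NGAL2. With the replicate number as a term, 4873 genes were called for shading in place of 4957, and the shading term stayed at 1.13. Libraries with the same number did not pair, since their deviations from the group means correlated by -0.727 to 0.677 (median 0.0162, 133 of 360 over 0.1), and 16 of 48 libraries correlated best with their own number. Without replicate 3, 2 B3 genes in place of 4 and 31 TFs of the 7 DAF list in place of 73 were higher under shading, and in Lumen only it was 2 and 47. Whole-number values limit NGAL2 most at 14 DAF, where 1 TPM separates many libraries.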
